A study of Mus musculus with 16 samples.

Results

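The RNA-binding proteins that shorten or prolong the life of cytokine transcripts were examined at the mRNA level in mouse blood neutrophils. The 10 genes were chosen by symbol for the families of the proteins they encode: tristetraprolin (Zfp36, Zfp36l1, Zfp36l2), Regnase (Zc3h12a, Zc3h12c, Zc3h12d) and Roquin (Rc3h1, Rc3h2), with Elavl1 (HuR) and Khsrp (KSRP). They are 10 of 23337 gene symbols in the count table, and 9 of them were among the 9213 genes with enough counts to be tested.

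Neutrophils were purified from blood of 8 week old C57/Bl6 mice by negative magnetic selection and sequenced in bulk as 16 libraries. All mice came from a line with the floxed Ltbr allele (Ltbr fl/fl). LTβRΔN mice also carried Mrp8-Cre, in which the promoter of a myeloid calprotectin gene drives the recombinase, and controls were littermates without Cre. The libraries comprised 3 unstimulated and 4 stimulated control samples, and 4 unstimulated and 5 stimulated LTβRΔN samples. The treatment protocol gives 2 h with TNF (100 ng/ml), IL-6 (50 ng/ml) and GM-CSF (100 ng/ml), either with soluble LIGHT (500 ng/ml) or without it. The series' design text places the cytokines themselves as the treatment, and no label gives the addition of LIGHT for a single library. "Stimulated" and "unstimulated" are therefore used only as labels. Nothing in the labels ties each library to a separate mouse, so p-values measure the spread between these libraries.

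Many cytokine and chemokine transcripts carry AU-rich elements in the 3′ untranslated region (UTR). Tristetraprolin and its paralogs bind these elements through paired zinc fingers and recruit deadenylases, which removes the poly(A) tail and exposes the transcript to decay. Regnase-1, the product of Zc3h12a, is an endonuclease that cuts stem-loops in inflammatory transcripts, and the Roquin proteins bind similar stem-loops and recruit deadenylases. KSRP promotes decay of AU-rich transcripts, whereas HuR binds them and mostly stabilises them. Several of these genes are themselves induced by the signals that induce cytokines, and this is known as feedback control in myeloid cells.

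Tristetraprolin is known to bind its own transcript, so the 3′ UTRs of the regulators were searched for the AU-rich nonamer TTATTTATT on the transcript strand. In 1 protein-coding transcript per gene (GENCODE M21, GRCm38), 6 of 10 regulators held it: the 3 tristetraprolin family genes, both Roquin genes and Elavl1. The nonamer was found in 7.54% of the 8716 tested genes with an annotated 3′ UTR. The 3′ UTRs of the regulators had a median length of 2081 bases, against 1025.5 bases over those 8716 genes. The nonamer was not found in these UTRs of Zc3h12a, Zc3h12c, Zc3h12d and Khsrp, which bears only on these letters in these windows. The 30-base stretches below are read 5′ to 3′ on the transcript strand with T for U, and capitals mark the nonamer. They are shown so that the sites in the regulators can be set beside those of 3 transcripts that tristetraprolin is known to bind.
Zfp36, chr7:28376951-28376980, minus strand: ttatgacgactTTATTTATTgtattaagat
Zfp36l1, chr12:80108167-80108196, minus strand: aaactgttggaTTATTTATTttagaaattc
Zfp36l2, chr17:84184914-84184943, minus strand: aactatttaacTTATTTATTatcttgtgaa
Rc3h1, chr1:160970042-160970071, plus strand: tactttactcaTTATTTATTgagatgagga
Rc3h2, chr2:37373287-37373316, minus strand: acaaagacattTTATTTATTttactctgta
Elavl1, chr8:4285776-4285805, minus strand: tatTTATTTATTTATTTATTtTTATTTATT
Tnf, chr17:35199678-35199707, minus strand: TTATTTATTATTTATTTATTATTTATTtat
Il23a, chr10:128296184-128296213, minus strand: atagatgatggTTATTTATTctatttataa
Cxcl2, chr5:90905335-90905364, plus strand: tatctatgtatTTATTTATTTATTaattcc
The tristetraprolin and Roquin genes each held a single nonamer. Elavl1 held 8 copies, of which 4 lie in the stretch shown, Tnf 5, Cxcl2 4 and Il23a 1.

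Library totals lay between 1094335 and 11932653 counts, and 3 LTβRΔN libraries had fewer than 2000000. Ltbr was at 84.6 to 154 CPM (counts scaled by the TMM-adjusted library size) in control and at 0.705 to 18.1 CPM in LTβRΔN libraries. The summed level of the 9 neutrophil markers in the table was 48576 to 78542 CPM. Of the B-cell markers, Cd79b, Ms4a1 and Pax5 were at 0 in every library, whereas the sum of the list went from 10.1 to 23.2 CPM without to 158 to 364 CPM with stimulation and Cd74 was its 1 tested gene. T and NK cell markers summed to at most 16.4 CPM. Monocyte markers summed to 444 to 637 CPM without and 429 to 542 CPM with stimulation. Platelet markers reached 206 CPM and markers of immature neutrophils 764 CPM in stimulated control libraries, and 0 genes of either list passed the edgeR test in any comparison. The part of these cells in the results was not tested, and in bulk samples fewer cells of a type and less RNA per cell cannot be told apart. The library index in the sample titles also followed the labels: all 9 stimulated libraries and unstimulated control replicate 3 carried index S521, and the other 6 unstimulated libraries carried S520.

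Of the tristetraprolin and Regnase genes, 3 were higher in stimulated than in unstimulated neutrophils in both genotypes: Zfp36, Zfp36l1 and Zc3h12a. In control neutrophils 3 of the 9 tested regulators passed the edgeR quasi-likelihood test at an adjusted p under 0.05, beside 3.48% of all tested genes (2.82% in the higher direction). In LTβRΔN neutrophils it was again 3 of 9, beside 3.73% of all tested genes (2.98% higher). For the mean of both genotypes it was also 3 of 9, beside 6.73% of all tested genes (4.82% higher). No regulator was lower past the threshold in these comparisons. The levels of 3 regulators did not overlap between the labels in control and of 3 in LTβRΔN neutrophils, beside 12.7% and 7.28% of all tested genes. Over the 9 regulators the median log2 fold change was 0.58 in control and 0.36 in LTβRΔN neutrophils, against -0.024 and -0.028 over all tested genes.

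Zfp36 encodes tristetraprolin itself and lies at chr7:28376784-28380253. Its level in unstimulated control libraries was 1560, 1686 and 4637 CPM, and in stimulated control libraries 15899, 15109, 13348 and 15123 CPM. In unstimulated LTβRΔN libraries it was 5464, 1292, 3289 and 4071 CPM, and in stimulated ones 15114, 16360, 16458, 15151 and 15499 CPM. The lowest stimulated library (13348 CPM) was well above the highest unstimulated one (5464 CPM). The stimulated libraries lay close together, with a coefficient of variation of 7.26% in control and 4.14% in LTβRΔN neutrophils, whereas the unstimulated libraries varied by 66.3% and 49.4%. In control neutrophils the log2 fold change came to 2.50 with a standard error of 0.354 (edgeR adjusted p = 3.40e-05), a 5.66-fold difference. Without unstimulated control replicate 3, the library at 4637 CPM, it came to 3.19 (edgeR adjusted p = 8.36e-07). In LTβRΔN neutrophils it came to 2.15 with a standard error of 0.303 (edgeR adjusted p = 3.33e-05), or 4.45-fold. Zfp36 took 0.147% to 0.564% of all counts of an unstimulated library and 1.22% to 1.55% of a stimulated one.

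Zfp36l1, a paralog at chr12:80107754-80113013 that also recruits deadenylases, differed by less. Control libraries had 482, 456 and 692 CPM without and 1084, 854, 875 and 958 CPM with stimulation. LTβRΔN libraries had 934, 575, 656 and 676 CPM without and 1207, 1025, 983, 972 and 1101 CPM with stimulation. Within each genotype the groups did not overlap, although unstimulated LTβRΔN replicate 1 (934 CPM) was above 2 of the 4 stimulated control libraries. The log2 fold change came to 0.79 ± 0.163 (standard error, edgeR adjusted p = 0.00329) in control and 0.57 ± 0.142 (standard error, edgeR adjusted p = 0.0195) in LTβRΔN neutrophils. The control call was lost without unstimulated replicate 2 (log2 fold change 0.67, edgeR adjusted p = 0.0606). The LTβRΔN call was lost without unstimulated replicate 2 (0.48, edgeR adjusted p = 0.0917), unstimulated replicate 3 (0.53, 0.0913), unstimulated replicate 4 (0.55, 0.0745) or stimulated replicate 1 (0.52, 0.0584). The control call of Zfp36l1 was also lost with the library index as a covariate. In LTβRΔN neutrophils its adjusted p ranged from 0.00150 to 0.9999 over all alternatives run (edgeR or DESeq2).

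Zfp36l2, the third paralog, lies at chr17:84183931-84187947 and is best known for its role in lymphoid and blood progenitor cells. It was at 397 to 487 CPM in unstimulated and 355 to 441 CPM in stimulated control libraries. The corresponding ranges in LTβRΔN neutrophils were 299 to 545 and 311 to 451 CPM. Both pairs of ranges overlapped, and the log2 fold change was -0.20 (standard error 0.168) in control and -0.27 (standard error 0.149) in LTβRΔN neutrophils, with edgeR adjusted p of 0.809 and 0.479. For the mean of both genotypes it was -0.24, with an unadjusted p of 0.0465 and an adjusted p of 0.286 (edgeR). That value passed the threshold when libraries were scaled by their totals only (log2 fold change -0.45, edgeR adjusted p = 0.00611), a scaling under which the median of all genes moved to -0.25. It also passed without unstimulated LTβRΔN replicate 2 (-0.31, edgeR adjusted p = 0.0471), and its adjusted p over all alternatives ranged from 0.00611 to 0.9999.

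**Figure D1:**
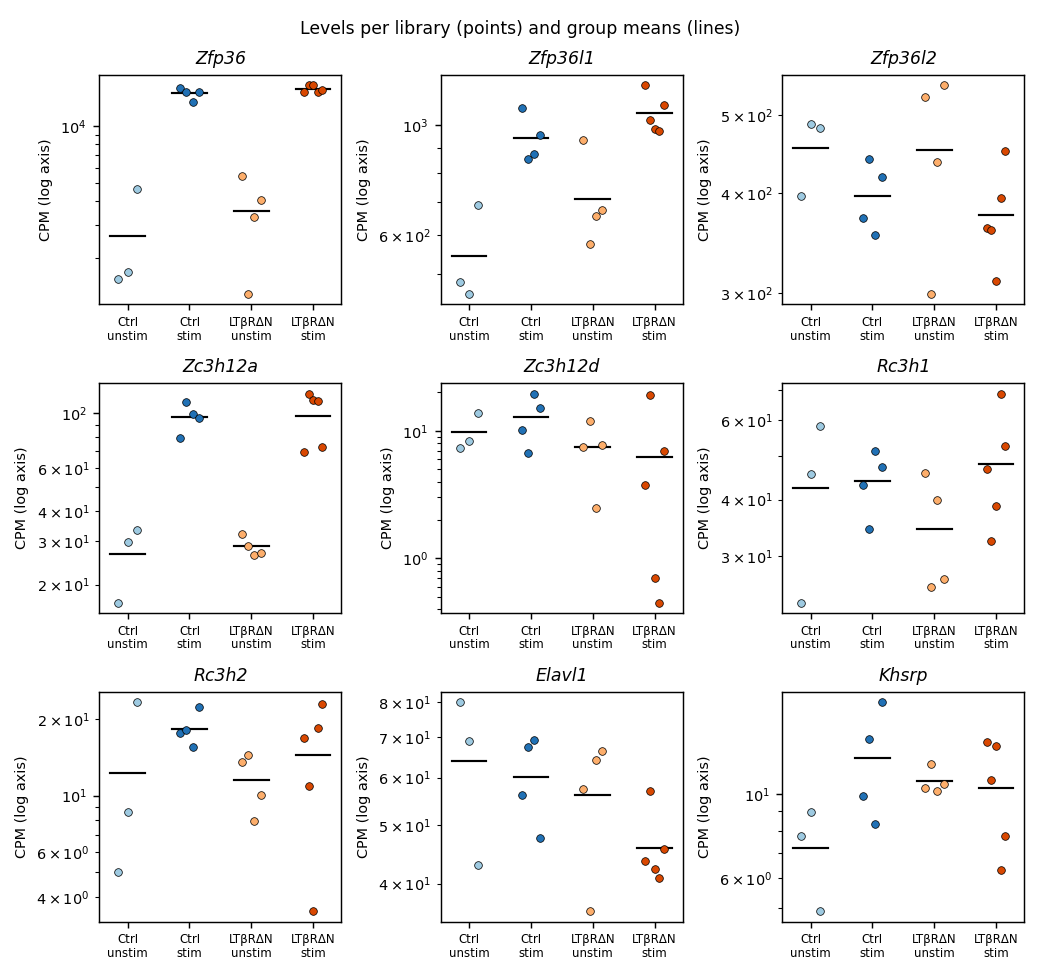
Levels of the 9 tested regulators in CPM on log axes, with 1 point per library and lines at the group means. For Zfp36, Zfp36l1 and Zc3h12a the stimulated libraries of each genotype lie above its unstimulated libraries, and for the other 6 genes these groups overlap.

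Because of these unequal differences, Zfp36 made up a larger part of its family in stimulated libraries. Counts were scaled to the merged length of all annotated exons of a gene. Zfp36 then held 62.2% to 78.4% of the family's counts in unstimulated control libraries and 90.7% to 91.4% in stimulated ones. In LTβRΔN neutrophils the ranges were 57.3% to 77.3% and 89.6% to 91.9%. Zfp36l2 held 7.33% to 17.8% of these counts without and 1.71% to 2.62% with stimulation over both genotypes. The log2 ratio of Zfp36 to Zfp36l2 counts, which does not depend on library scaling, averaged 2.34 ± 0.803 (SD, n = 3) without and 5.23 ± 0.135 (SD, n = 4) with stimulation in control libraries. In LTβRΔN libraries it was 2.82 ± 0.526 (SD, n = 4) and 5.40 ± 0.237 (SD, n = 5). The differences of 2.89 and 2.57 gave p = 0.0286 and p = 0.00794 in exact two-sided permutation tests, the smallest values that 4 against 3 and 5 against 4 libraries allow. After adjustment over the 4 ratio tests run, both exact permutation p-values were 0.0286.

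**Figure D2:**
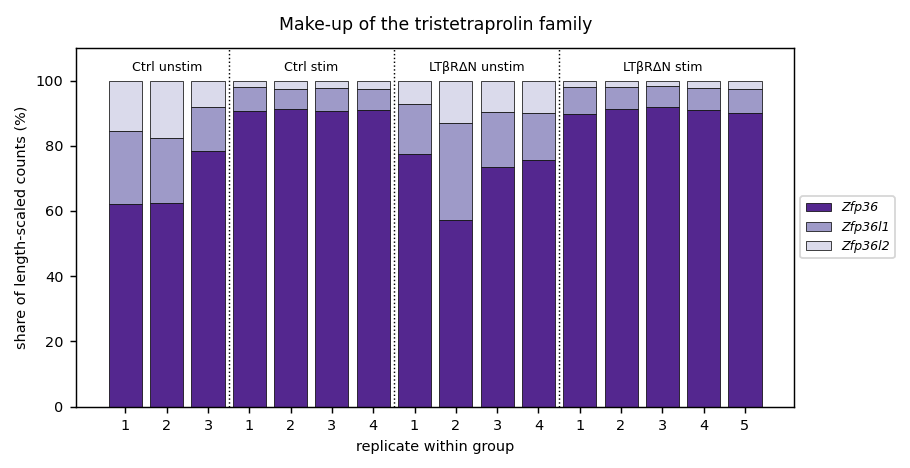
Share of each tristetraprolin family gene in the family's length-scaled counts, in percent, with 1 bar per library and replicates numbered within groups. Zfp36 fills 57.3% to 78.4% of the unstimulated and 89.6% to 91.9% of the stimulated bars.

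Zc3h12a, the gene of the endonuclease Regnase-1, lies at chr4:125118423-125127840. Its level was 16.9, 29.8 and 33.5 CPM in unstimulated and 79.2, 111, 99.2 and 96.1 CPM in stimulated control libraries. In LTβRΔN neutrophils it was 32.2, 28.8, 26.5 and 27.0 CPM without and 69.8, 121, 113, 112 and 73.2 CPM with stimulation. The groups did not overlap, and the lowest stimulated values were those of LTβRΔN replicates 1 and 5. The groups differed by 1.85 ± 0.254 on the log2 scale (standard error, edgeR adjusted p = 2.22e-05) in control and by 1.78 ± 0.228 (standard error, edgeR adjusted p = 7.93e-06) in LTβRΔN neutrophils, or 3.62-fold and 3.43-fold.

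The other Regnase genes were low. Zc3h12c, which encodes Regnase-3, had 3 counts in stimulated LTβRΔN replicate 3, 1 count in stimulated control replicate 2 and 0 in the other 14 libraries. It was not tested, and no fold is given. The limit that a count of 0 allows, 3 counts, corresponds to 0.228 to 2.40 CPM by library. Zc3h12d, which encodes Regnase-4, was at 7.38 to 13.8 CPM in unstimulated and 6.64 to 19.6 CPM in stimulated control libraries. In LTβRΔN neutrophils it was at 2.49 to 12.0 and 0.449 to 19.1 CPM, where the lowest value rests on 1 count and the highest on 154. Its log2 fold change was 0.40 (standard error 0.782) in control and -0.12 (standard error 0.713) in LTβRΔN neutrophils, with edgeR adjusted p of 0.955 and 0.982.

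The Roquin genes did not pass the test. Rc3h1, which encodes Roquin-1, was at 23.7 to 58.3 CPM without and 34.4 to 51.2 CPM with stimulation in control libraries. In LTβRΔN libraries its ranges were 25.6 to 45.8 and 32.4 to 68.7 CPM. The log2 fold changes of 0.056 (standard error 0.306) and 0.45 (standard error 0.279) had edgeR adjusted p of 0.989 and 0.563. Rc3h2, which encodes Roquin-2, was at 5.02 to 23.3 and 15.5 to 22.2 CPM in control libraries, and at 7.92 to 14.4 and 3.52 to 22.9 CPM in LTβRΔN libraries. Its log2 fold changes were 0.58 (standard error 0.526) and 0.36 (standard error 0.477). Regnase-1 and Roquin act on overlapping sets of stem-loop transcripts, so their counts were also set against each other within libraries, a ratio that moves with either gene. The log2 ratio of Zc3h12a to Rc3h1 counts averaged -0.63 ± 0.155 (SD, n = 3) without and 1.13 ± 0.373 (SD, n = 4) with stimulation in control libraries. In LTβRΔN libraries it was -0.23 ± 0.373 (SD, n = 4) and 1.03 ± 0.636 (SD, n = 5). The differences of 1.76 and 1.26 gave p = 0.0286 and p = 0.0159 in exact two-sided permutation tests, both 0.0286 after adjustment.

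Elavl1 encodes HuR, and Khsrp encodes KSRP. Elavl1 was at 43.0 to 80.1 CPM without and 47.7 to 69.2 CPM with stimulation in control libraries, and at 36.0 to 66.5 and 40.9 to 56.9 CPM in LTβRΔN libraries. Its log2 fold changes were -0.094 (standard error 0.243) and -0.30 (standard error 0.220), with edgeR adjusted p of 0.965 and 0.671. Khsrp was at 4.91 to 8.95 and 8.32 to 17.5 CPM in control libraries, and at 10.2 to 12.0 and 6.29 to 13.7 CPM in LTβRΔN libraries. Its log2 fold changes were 0.78 (standard error 0.470) and -0.057 (standard error 0.419), with edgeR adjusted p of 0.615 and 0.986. Exons of Elavl1 overlap those of Ccl25 on the opposite strand, and it is not given whether the counting used strand.

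**Figure D3:**
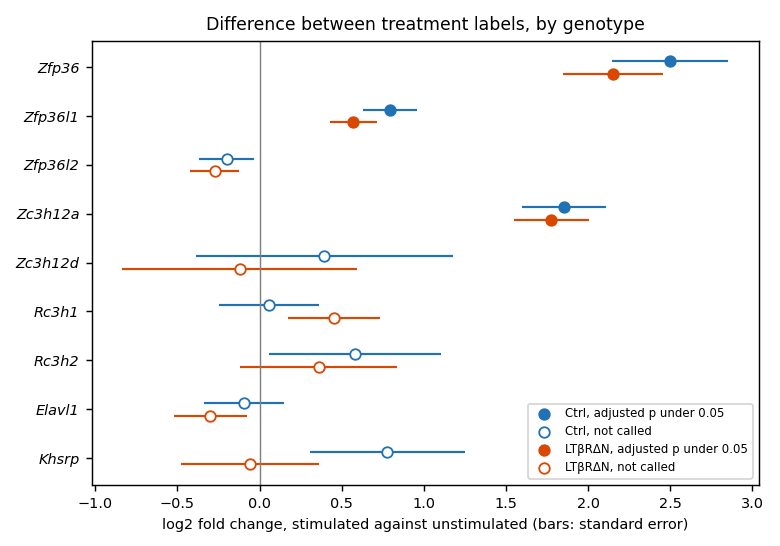
Log2 fold change of the 9 tested regulators between stimulated and unstimulated libraries in each genotype, with bars for the standard error. Filled points passed the edgeR test at an adjusted p under 0.05: Zfp36 (2.50 and 2.15), Zfp36l1 (0.79 and 0.57) and Zc3h12a (1.85 and 1.78).

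The library index bears on each of these differences, since all unstimulated LTβRΔN libraries carried S520 and all stimulated libraries S521. In LTβRΔN neutrophils the index and the label therefore cannot be told apart. In control neutrophils, unstimulated replicate 3 was the 1 unstimulated library with index S521. Its Zfp36 level of 4637 CPM was the highest of the unstimulated control libraries, and the 4 stimulated libraries averaged 3.21 times that level. Zc3h12a averaged 2.87 times and Zfp36l1 1.36 times the level of that library, and for all 3 genes each of the 4 stimulated libraries was above it. Among libraries of index S521 only, the control log2 fold changes were 1.68 for Zfp36, 1.52 for Zc3h12a and 0.44 for Zfp36l1. No p is given for them, since 1 unstimulated library has no spread of its own and unstimulated libraries varied more than stimulated ones in Zfp36. With the index as a covariate, 2 regulators passed in control neutrophils: Zfp36 at 1.68 (edgeR adjusted p = 0.0376) and Zc3h12a at 1.52 (edgeR adjusted p = 0.0424). These log2 fold changes are those of index S521 alone, so both calls rest on the same 1 unstimulated library. Their p-values borrow the spread of the other groups and cannot decide whether the differences hold within 1 index. The covariate's estimate rests on that 1 control library against the other 2 unstimulated control libraries, and in LTβRΔN neutrophils it is carried over from them. There 0 regulators passed with it, with log2 fold changes of 0.64 for Zfp36, 0.013 for Zfp36l1 and 1.25 for Zc3h12a. Over the alternatives other than the fit of index S521 alone, these were the highest adjusted p in control neutrophils: 0.0376 for Zfp36 and 0.0424 for Zc3h12a (edgeR).

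**Figure D4:**
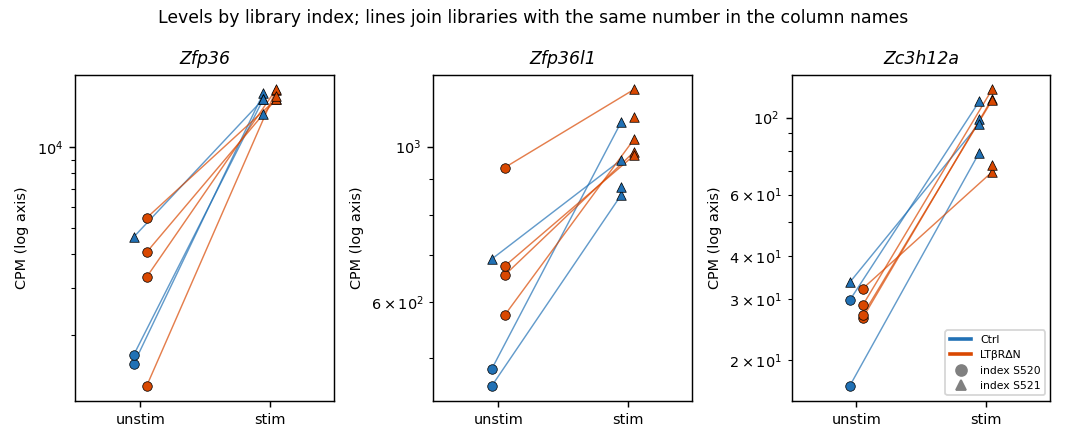
Levels of Zfp36, Zfp36l1 and Zc3h12a in CPM on log axes by treatment label, with circles for index S520, triangles for S521, and lines joining libraries that share a number in the column names. The single unstimulated S521 library, a control with 4637 CPM of Zfp36, lies below all 4 stimulated control libraries in each panel.

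Whether the receptor's absence altered the regulators was addressed by comparing the genotypes within each label. Among stimulated libraries, 0 of 9 tested regulators passed the edgeR test, beside 0.0217% of all tested genes. There 0 regulators had an unadjusted p under 0.05 in edgeR, beside 591 of all 9213 tested genes. Depth differed there, with a median of 2408608 counts in LTβRΔN and 8255788 in control libraries, so low genes rest on fewer counts in LTβRΔN libraries. Among unstimulated libraries 0 of 9 passed, again beside 0.0217% of all tested genes. Here 1 regulator, Zfp36l1, had an unadjusted p under 0.05, beside 258 of all 9213 tested genes. The unadjusted p of Zfp36l1 in edgeR was 0.0245. The interaction of genotype and stimulation was passed by 0 of 9 regulators, beside 0% of all tested genes. At an unadjusted p under 0.05 in edgeR it was 0 regulators, beside 342 of all 9213 tested genes. DESeq2 called 0 regulators in these 3 comparisons. Zfp36 differed between LTβRΔN and control by 0.080 (log2, standard error 0.284) with and 0.43 (standard error 0.326) without stimulation, and the interaction was -0.35 (standard error 0.431). Without unstimulated control replicate 3 the unstimulated difference was 1.12 and the interaction -1.04, with edgeR adjusted p of 0.839 and 0.9999. That replicate carried index S521 and all other unstimulated libraries S520, so the unstimulated genotype comparison mixes indices for every regulator. For Zfp36l1 the differences were 0.17 (standard error 0.141) and 0.39 (standard error 0.161), with an interaction of -0.22 (standard error 0.213), and without unstimulated control replicate 3 the unstimulated difference was 0.60 and the interaction -0.43. For Zc3h12a they were 0.025 (standard error 0.211) and 0.10 (standard error 0.248), with an interaction of -0.078 (standard error 0.326). Over all 9 regulators the genotype differences spanned -0.96 to 0.17 with and -0.44 to 0.57 without stimulation. Khsrp was the 1 regulator whose unstimulated groups did not overlap, with 10.2 to 12.0 CPM in LTβRΔN and 4.91 to 8.95 CPM in control libraries, beside 5.71% of all tested genes with no overlap there, and its edgeR adjusted p was 1. These comparisons share libraries with the comparisons of the labels.

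Levels of different genes were compared per kilobase of exon, with the exons of all annotated transcripts of a gene merged. Merged lengths ran from 2882 bases for Zc3h12a to 19624 bases for Rc3h2, with 3470 bases for Zfp36. They can exceed the length of the transcript that is expressed, and levels per kilobase are then understated. In each of the 4 groups the order from the highest was Zfp36, Zfp36l1, Zfp36l2, Zc3h12a, Elavl1 and Rc3h1, and Zc3h12c was last. Mean Zfp36 levels per kilobase in control neutrophils were 757 ± 502 (SD, n = 3) CPM without and 4285 ± 311 (SD, n = 4) CPM with stimulation. In LTβRΔN neutrophils they were 1017 ± 502 (SD, n = 4) and 4529 ± 188 (SD, n = 5) CPM. By this measure Zfp36 ranked 68th and 52nd of 22848 genes with a known length in unstimulated control and LTβRΔN neutrophils, and 16th and 15th in stimulated ones. Zfp36l1 ranked 280th and 223rd without and 186th and 166th with stimulation. Zc3h12a stood at 9.28 ± 3.03 (SD, n = 3) and 33.5 ± 4.59 (SD, n = 4) CPM per kilobase in control neutrophils, ranks 2755 and 1186. The ranges of the first 4 genes did not overlap their neighbour below in any group, except for Zc3h12a and Elavl1 in unstimulated control libraries. From Elavl1 down, neighbours overlapped in most cases.

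Other transcripts followed the 3 called regulators closely across the 16 libraries. Among 4160 genes with a mean of at least 20 CPM, the log2 CPM of Zfp36 was most like that of Cxcl2 (Pearson r = 0.988), Slc7a11 (0.987) and Osm (0.986). Cxcl2 encodes a neutrophil chemoattractant and Osm the cytokine oncostatin M. Zfp36l1 was most like E330020D12Rik (0.955), Ddx3y (0.934) and Osm (0.930), and Zc3h12a was most like Plaur (0.977), Ffar2 (0.976) and Nfkbie (0.974). These are descriptions over n = 16 libraries that share the separation by label and index, and they carry no p.

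The machinery that these proteins recruit was described against all tested genes, of which 4.82% were higher for the mean of both genotypes and 6.73% were called in either direction. Here and in the lists below, this mean carries the separation by label and index. With the index as a covariate, the genes called for it went from 620 to 147. Of 34 tested genes of deadenylation and decapping, 2 were higher and 0 lower for the mean of both genotypes: Ddx6, a decapping helicase (log2 fold change 0.74, edgeR adjusted p = 2.53e-05), and Btg2, which promotes deadenylation (0.69, 4.01e-05). The list's median was 0.010, against -0.038 over all tested genes. Of 14 tested genes of the RNA exosome, the 3′ to 5′ decay complex, 0 passed in either direction and the median was -0.39. Of 16 other AU-rich or stem-loop binding proteins, 3 were higher and 0 lower, beside 4.82% higher over all tested genes, with a median of 0.11 against -0.038. These were N4bp1, a nuclease related to Regnase-1 (1.31, edgeR adjusted p = 1.44e-06), Arid5a, which protects transcripts against Regnase-1 (0.61, 1.26e-05), and Pcbp2 (0.78, 0.00423).

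Enzymes that modify the regulators were described next. Of 19 tested enzymes and adaptors, 2 were higher and 0 lower, beside 4.82% higher over all tested genes, with a median of -0.16 against -0.038. Mapkapk2 encodes the p38-activated kinase that phosphorylates tristetraprolin. It was at 153 to 283 CPM in unstimulated and 604 to 878 CPM in stimulated control libraries, and at 235 to 299 and 469 to 765 CPM in LTβRΔN libraries, with no overlap in either genotype. Over both genotypes the difference was 1.54 on the log2 scale (standard error 0.139, edgeR adjusted p = 1.53e-08). Myd88, an adaptor of Toll-like and IL-1 receptors, was also higher (0.75, edgeR adjusted p = 4.62e-07). Malt1, the protease that cleaves Regnase-1 and Roquin, was at 15.6 to 26.1 and 28.4 to 44.4 CPM in control libraries and at 14.4 to 31.9 and 11.8 to 44.9 CPM in LTβRΔN libraries, and did not pass (0.73, standard error 0.263, edgeR adjusted p = 0.113).

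Of 21 tested transcripts that these proteins are known to bind, 14 were higher and 1 lower for the mean of both genotypes, beside 4.82% higher and 6.73% called over all tested genes. Their median log2 fold change was 1.29, against -0.038 over all tested genes. The list was compiled with earlier results of these data known and holds many cytokine genes. It named 28 genes, and those left untested, several of them cytokine genes, had at most 26 counts each over all 16 libraries. The shares therefore cover only the listed transcripts with enough counts. Il23a, a subunit of interleukin-23, was at 1.67 ± 1.397 (SD, n = 3) and 1174 ± 254 (SD, n = 4) CPM in control neutrophils, and at 3.30 ± 2.11 (SD, n = 4) and 875 ± 293 (SD, n = 5) CPM in LTβRΔN neutrophils. Its log2 fold change was 9.06 (edgeR adjusted p = 6.87e-15). Cxcl3, a chemokine, and Ier3, an early response gene, were higher by 4.84 and 4.24 on the log2 scale (edgeR adjusted p = 2.00e-15 and 1.21e-14). Tnf was at 2.05 to 13.2 CPM without and 98.4 to 223 CPM with stimulation in control libraries, and at 8.00 to 19.7 and 109 to 162 CPM in LTβRΔN libraries. It was higher by 3.84 on the log2 scale (standard error 0.296, edgeR adjusted p = 9.90e-10). Fos, an AP-1 subunit with a nonamer in its 3′ UTR, was the 1 member of the list that was lower (-1.21, standard error 0.281, edgeR adjusted p = 0.00679).

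The nonamer printed above was also counted over all tested genes with a 3′ UTR. Of 657 genes with the nonamer, 60 (9.13%) were higher and 14 (2.13%) lower with stimulation for the mean of both genotypes. Over all 8716 genes with a 3′ UTR the shares were 4.92% and 1.93%. Of the 138 genes with at least 2 nonamers, 14 (10.1%) were higher and 5 (3.62%) lower. Genes with the nonamer had longer 3′ UTRs, with a median of 2285 bases. In 4 equally filled classes of 3′ UTR length from the shortest to the longest, 6.25%, 12.5%, 12.4% and 6.84% of genes with the nonamer were higher, against 3.17%, 4.76%, 5.13% and 5.41% of genes without it. The first of these shares rests on 2 of 32 genes. These shares also carry the separation by label and index, and they are given without a test.

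**Figure D5:**
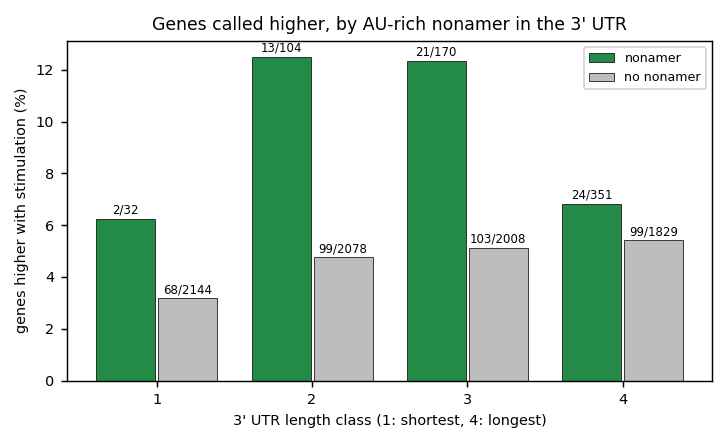
Percent of tested genes called higher with stimulation, for the mean of both genotypes, among genes with (green) and without (grey) the AU-rich nonamer in each of 4 classes of 3′ UTR length, with counts above the bars. The green bars reach 6.25%, 12.5%, 12.4% and 6.84%, and the grey bars 3.17% to 5.41%.

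Upstream sequence was searched because the 3 regulators moved together. In 250 bases before the RefSeq start (GRCm38.p6), which were found for 9 of the 10 regulators, both strands were searched for the κB consensus, the CArG box bound by serum response factor, the STAT site TTCNNNGAA and the AP-1 site TGANTCA. Zfp36 held a CArG box 58 bases upstream, a motif in 1.47% of 32851 promoters, and a STAT-type match 17 bases upstream, a motif in 7.02%. The CArG box is shown in capitals because it was the rarer of the motifs found.
Zfp36 promoter, chr7:28379267-28379296, minus strand: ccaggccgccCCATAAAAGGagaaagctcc
Zfp36l1 held an AP-1 match 129 bases upstream, a motif in 6.75% of promoters, and TATAAA 29 bases upstream, a motif in 7.59%. Rc3h1, which did not pass the test, held an AP-1 match 133 bases upstream. Zc3h12c, which was not tested, held a κB match 236 bases upstream, a motif in 7.25%. No match to any of the motifs searched was found in the window of Zc3h12a. The 3 called regulators thus shared none of these motifs within these windows, which says nothing of the factors that act on them.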

How the data were processed

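Bulk RNA was sequenced single-end from 16 neutrophil libraries. The deposited values are unnormalized whole-number counts per gene symbol, in 1 table from the authors. The submitters' processing notes name Bowtie 1.0.0, TopHat 1.4.1, HTSeq 0.7.1 and build mm10, and annotation and strand setting are not given in the sources used here. Reads shared by paralogs or by genes on opposite strands may be split or lost in such counting. Exons of 6 of the 10 regulators overlap those of a gene on the other strand. Of these overlapping genes 1, Ccl25 at Elavl1, is in the count table. Libraries were assigned to groups from the labels.

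Genes were kept by filterByExpr (minimum count 10, minimum total 15), which left 9213 of 23337. A single model over all 16 libraries was fitted by edgeR 4.0.16 under R 4.3.3 (TMM factors, 1 coefficient per group, quasi-likelihood test), with Benjamini-Hochberg adjustment over all tested genes and a threshold of 0.05. The procedure was tested on simulated data. CPM used TMM-scaled totals, and library totals of 1094335 to 11932653 counts set the precision. Limits from a count of 0 cover counting error only. Ratios used a pseudocount of 1 and exact two-sided permutation tests. Exon lengths, gene places and 3′ UTRs came from GENCODE M21 (GRCm38), and promoters from RefSeq (GRCm38.p6). Exon lengths were matched by symbol for 22848 genes (97.9%).

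Alternatives were DESeq2 size factors, upper-quartile and total scaling, other filters, the library index as a covariate, index S521 alone, DESeq2 1.42.0, the compared groups only, a threshold of 0.01, removal of libraries under 2000000 counts, a replicate block, a pseudocount of 5, and each library left out.

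All 10 regulators were named. Named besides them were up to 3 genes per direction with the smallest p of each pathway list, the 3 genes most like each called regulator, Ltbr, Malt1, Mapkapk2 and Tnf. Genes whose sequences are shown were chosen after their values were seen. The regulators and lists were chosen with earlier results of these data known. Library pairs of a group differed by more than sampling noise (chi-square per degree of freedom between 7.12 and 50.4 in 25 pairs).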

Additional observations from a re-analysis of the deposited data

How the results depend on the processing

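The log2 fold changes of Zfp36, Zfp36l1 and Zc3h12a with stimulation stayed above 0 under the alternatives run, although that of Zfp36l1 in LTβRΔN neutrophils was 0.013 with the index as a covariate (edgeR adjusted p = 0.9999). The number of regulators past the threshold depended on the library index. With the index as a covariate 2 regulators passed in control neutrophils, 0 in LTβRΔN neutrophils and 0 for the mean of both genotypes. For that mean the log2 fold changes were 1.16 for Zfp36, 0.23 for Zfp36l1 and 1.39 for Zc3h12a. In control neutrophils the calls with the covariate rest on the 1 unstimulated library of index S521. In LTβRΔN neutrophils the covariate is estimated from control libraries alone. The covariate also took the count over all genes from 321 to 157, from 344 to 79 and from 620 to 147. Scaling by totals moved these counts to 473, 509 and 1230, and the Zfp36l1 call in LTβRΔN neutrophils was lost under it (0.40, edgeR adjusted p = 0.0965) and without the 3 libraries under 2000000 counts (0.45, edgeR adjusted p = 0.232). The cause was not tested.

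Among the regulators that passed no test, the sign changed under some alternatives for Elavl1, Khsrp, Rc3h1, Rc3h2 and Zc3h12d, in the genotypes given here, and under none run for Zfp36l2. With the index covariate the control log2 fold changes became 0.48 for Elavl1, -0.40 for Rc3h1, -0.35 for Rc3h2 and -0.090 for Zc3h12d, and with S521 alone 0.48, -0.41, -0.35 and -0.096. In LTβRΔN neutrophils the covariate gave 0.50 for Elavl1, 0.71 for Khsrp, -0.30 for Rc3h1 and -1.42 for Rc3h2. Scaling by totals gave -0.19 for Rc3h1 in control neutrophils, and removal of the libraries under 2000000 counts gave 0.62 for Zc3h12d in LTβRΔN neutrophils. With each library left out in turn, control values ranged from -0.24 to 0.35 for Rc3h1 and from -0.32 to 0.097 for Elavl1, and LTβRΔN values from -1.23 to 0.17 for Zc3h12d and from -0.17 to 0.078 for Khsrp. The genotype difference of Zfp36 in unstimulated libraries ranged from 0.14 to 1.12 over all alternatives and its interaction from -1.04 to -0.060. With each library left out, that of Zc3h12a ranged from -0.067 to 0.12 with and from -0.15 to 0.30 without stimulation, and its interaction from -0.27 to 0.17.

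The ratio of Zfp36 to Zfp36l2 in control neutrophils differed by 2.61 to 3.35 with each library left out, and that of Zc3h12a to Rc3h1 by 1.58 to 1.85 in control and 1.05 to 1.403 in LTβRΔN neutrophils. In control neutrophils the exact permutation test then cannot go below p = 0.0667, so it says nothing about stability. In LTβRΔN neutrophils the exact permutation p of the Zc3h12a to Rc3h1 ratio was 0.0536 without unstimulated replicate 1 (difference 1.17) or replicate 3 (1.14).

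The numbers in the column names recur across the labels for 7 pairs of libraries. Deviations from the group means correlated at 0.0214 to 0.0694 within these pairs and at -0.0489 to 0.0298 in 25 other pairs. Of 14 libraries, 13 correlated best with the library of their own number. The libraries may thus be paired by number, although no label says what the number stands for. The main fit and the permutation tests took the libraries as independent and did not use the number. With that number as a replicate block, 3 regulators passed in each comparison of the labels, as without it, and 324, 343 and 605 genes in all. Under the replicate block Rc3h2 in LTβRΔN neutrophils became -0.019. Zc3h12c was left untested by the filter on counts, with at most 3 counts in a library. It had 0 counts in the deepest library, unstimulated control replicate 1 with 11932653 counts in all.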
